A study of Mus musculus with 20 samples.

Results

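The hearts of 5 sedentary male mice labelled as a knockout of PGC-1α in cardiomyocytes were compared with those of 5 sedentary wild-type males across the transcriptome. All 10 mice were 14 to 16 weeks old and labelled sedentary, and the other 10 of the 20 libraries came from mice of the same 2 genotypes trained on a wheel for 6 weeks. Each library was made from poly-A selected RNA of a piece of heart, and the chamber sampled is not given in the sources used here. Nor are the Cre driver, the deleted exons and the littermate status of the wild-type mice. Levels were deposited as FPKM (fragments per kilobase of exon, scaled to library size), and the comparison covered the 13723 of 25851 genes with a mean of at least 0.5 FPKM over the 20 libraries. Values below are means ± SD in FPKM with n = 5 mice per group. Fold changes are labelled knockout minus wild type on the log2(FPKM + 0.5) scale with SE, which understates the change of low genes, and the adjusted p of limma covers all 13723 genes with a threshold of 0.05. A gene rose or fell where it passed that threshold.

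PGC-1α, the product of Ppargc1a, is a transcriptional coactivator that does not bind DNA itself. It is recruited by estrogen-related receptors, PPARs and NRF1, and it raises transcription of genes for mitochondrial biogenesis, fatty acid oxidation and the respiratory chain. Heart muscle depends on oxidation for its energy, and PGC-1α is abundant there.

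Ppargc1a was read first because it was the labelled target. Wild-type libraries held 14.8, 9.39, 15.4, 12.2 and 9.48 FPKM of Ppargc1a, and labelled knockout libraries 27.9, 18.8, 23.0, 18.2 and 26.5 FPKM. Every labelled knockout library was thus above every wild-type library, opposite to what the label says of this gene, and the groups are called labelled knockout throughout. The deposited value sums reads over all exons, so it does not check a deletion of a few of them. Depth did not separate the groups, at 20.9 ± 2.94 M recovered reads in wild-type and 20.4 ± 4.82 M in labelled knockout libraries (exact two-sided permutation p = 0.857). Transcripts of the mitochondrial genome made up 20.3 ± 2.09% of reads in wild-type and 17.8 ± 0.432% in labelled knockout hearts (exact two-sided permutation p = 0.0317, n = 5). Of 11 cardiomyocyte markers 2 fell and 0 rose, and their summed level was 21780 to 27206 FPKM in wild-type and 22063 to 25750 FPKM in labelled knockout libraries. In bulk tissue fewer cells of a type and less RNA per cell cannot be told apart. The clock activator Arntl was unevenly spread over the groups, at 3.13, 2.78, 4.36, 2.46 and 0.0658 FPKM in wild-type libraries and 2.50, 0.132, 0.137, 0.136 and 0.150 FPKM in labelled knockout libraries. High Arntl was therefore found in 4 of 5 wild-type and 1 of 5 labelled knockout hearts, and counts from a fit with log2 Arntl as a covariate are given beside most gene groups. That fit has fewer calls, so a call lost in it does not show that a difference went with Arntl.

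Of the 13723 genes, 955 rose (6.96%) and 867 fell (6.32%), which is 13.3% in either direction. Most changes were small. The median was 0.48 among genes that rose and -0.46 among those that fell, and 494 and 508 of them changed by less than 0.5 on the log2 scale. A change of at least 2-fold was found for 121 genes that rose and 67 that fell, and one of at least 4-fold for 15 and 5. All 5 labelled knockout libraries lay above all 5 wild-type libraries for 706 genes (5.14%), and all wild-type libraries lay above for 726 genes (5.29%). Rescaled to a common sum per library (TPM), 1061 genes rose and 393 fell, so the split between directions depended on the scaling, with a median over all genes of 0.07 against -0.01 on the deposited scale.

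Abundant genes were called more often, with 10.3% rising and 10.1% falling in the highest quartile of mean level and 4.69% and 2.91% in the lowest. Protein-coding genes made up 864 of the genes that rose and 796 of those that fell, long noncoding RNAs 50 and 40 of 772 tested, and pseudogenes 36 and 20 of 745. Among autosomes and X the share of genes that rose ran from 3.55% on chromosome 14 and 3.56% on chromosome 18 to 10.6% on chromosome X, where 43 of 407 rose and 20 fell, while 0 of 8 genes on Y and 0 of 33 transcripts of the mitochondrial genome rose. On the X chromosome the renin-binding protein gene Renbp, an enzyme of amino sugar metabolism, was at 1.74, 2.30, 1.45, 2.00 and 2.44 FPKM in wild-type and 5.68, 8.24, 6.76, 7.50 and 7.62 FPKM in labelled knockout libraries. Its difference of 1.63 ± 0.14 passed with the covariate too (limma adjusted p = 1.25e-06). Around Ppargc1a on chromosome 5, 17 other tested genes lay within 5 Mb, of which 1 rose (5.88%) and 2 fell (11.8%). Within 10 Mb 1 of 38 rose (2.63%) and 4 fell (10.5%). Within 20 Mb 7 of 143 rose (4.90%) and 8 fell (5.59%). Of all genes 6.96% rose and 6.32% fell, so the share that rose was not raised in any of these windows. The gene that rose within 5 Mb was Lgi2, 0.966 Mb away, at 0.560 ± 0.0823 against 1.90 ± 0.373 FPKM (1.17 ± 0.19).

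**Figure D1:**
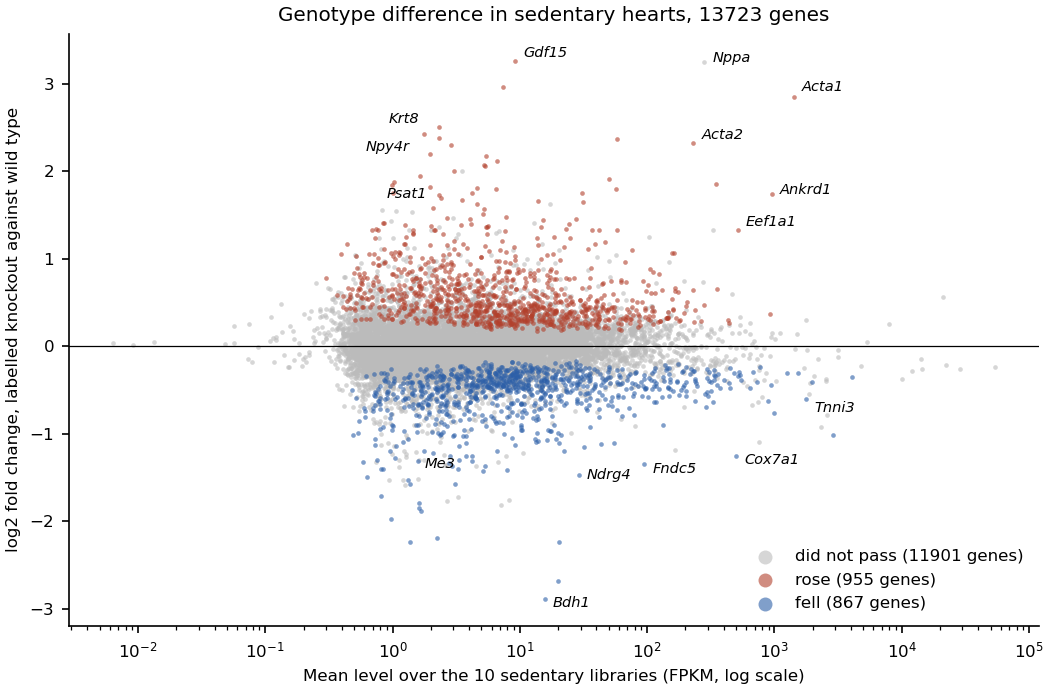
Each point is a gene, with its mean level over the 10 sedentary libraries in FPKM on a log scale (horizontal) and its log2 fold change, labelled knockout against wild type (vertical), coloured by whether it rose (955), fell (867) or did not pass (11901). Changes of both signs appear at every level, the largest among them Gdf15 upward and Bdh1 downward. Nppa is labelled but did not pass.

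The genes with the largest increases included a predicted gene, an epithelial secretory gene and several secreted or matrix-associated proteins. Gm47985, a predicted protein-coding gene on the plus strand of chromosome 1 (151182537 to 151184243, GRCm38), was at 0.955, 1.28, 0.615, 1.47 and 2.03 FPKM in wild-type and 16.3, 9.76, 9.01, 21.6 and 11.1 FPKM in labelled knockout hearts. The groups were far apart, and the difference was 2.97 ± 0.24 (limma adjusted p = 4.55e-07). Scgb1c1, a secretoglobin, was at 15.6, 10.4, 14.1, 26.0 and 32.0 FPKM against 98.8, 91.8, 109, 103 and 76.8 FPKM (2.37 ± 0.24). Again no libraries overlapped, and the wild-type library with low Arntl, replicate 5, was the highest of its group.

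Thrombospondin 4, encoded by Thbs4 and a matricellular glycoprotein of stressed muscle, was at 0.867, 2.49, 1.10, 2.36 and 1.41 FPKM in wild-type and 5.54, 6.68, 6.44, 15.9 and 9.11 FPKM in labelled knockout libraries (2.08 ± 0.30, limma adjusted p = 0.00022). Ptgds, which makes prostaglandin D2, was at 182, 163, 57.6, 149.5 and 237 FPKM against 348, 562, 534, 508 and 709 FPKM (1.85 ± 0.28). Ccn2, connective tissue growth factor, was at 21.3 ± 7.41 against 78.9 ± 10.8 FPKM. Its difference of 1.92 ± 0.42 passed without the Arntl covariate (limma adjusted p = 0.00563) and not with it (1.47, limma adjusted p = 0.111). Genes hardly measured in wild-type hearts were also found. Rxfp1, the relaxin receptor, was at 0.0963, 0.0373, 0.250, 0.207 and 0.0806 FPKM in wild-type and 3.77, 1.55, 1.57, 1.52 and 1.28 FPKM in labelled knockout libraries (1.87 ± 0.41), so 1 labelled knockout library was higher than the other 4. Ndnf, a secreted factor that acts on neurons and endothelium, went from 0.578 ± 0.187 to 3.34 ± 0.851 FPKM (1.82 ± 0.29).

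The water channel Aqp8 and ladinin, encoded by Lad1, stood among the same largest increases. Aqp8 was at 3.22, 3.44, 1.14, 1.56 and 1.68 FPKM in wild-type and 14.1, 10.7, 5.35, 13.0 and 12.1 FPKM in labelled knockout libraries (2.11 ± 0.35, limma adjusted p = 0.000633). Lad1 was at 1.77 ± 1.03 against 9.16 ± 1.81 FPKM and did not pass with the Arntl covariate (2.17 ± 0.41 without it, 1.61 with it, limma adjusted p = 0.0549). Keratins 8 and 18 are partners in the filaments of simple epithelia, and both rose with groups that did not overlap. Krt8 was at 0.208, 0.383, 0.149, 0.419 and 0.138 FPKM against 3.80, 1.96, 2.01, 8.89 and 5.17 FPKM, and Krt18 at 0.567, 0.652, 0.162, 0.381 and 0.251 FPKM against 3.88, 3.84, 2.52, 6.79 and 4.34 FPKM. In both genes labelled knockout replicate 4 was the highest library. Epicardial and mesothelial markers were higher in sum in labelled knockout hearts, but Krt8 is 1 of them and itself raised that sum. In labelled knockout replicate 4 it made up 8.89 FPKM of a sum of 10.4 FPKM. The part that epicardial and mesothelial cells have in the keratin levels was not tested.

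Among long noncoding RNAs, Eprn (minus strand of chromosome 13, 73344665 to 73347384, GRCm38) was at 0.156, 0.478, 0.715, 1.21 and 0.758 FPKM in wild-type and 5.38, 4.84, 4.26, 6.79 and 4.06 FPKM in labelled knockout hearts (2.31 ± 0.20, limma adjusted p = 1.54e-06). Gm15543, annotated as antisense (chromosome 6, 145182275 to 145187630), moved the other way. Its 5 wild-type libraries held 39.2, 38.1, 39.8, 26.1 and 32.3 FPKM and its 5 labelled knockout libraries 4.31, 5.10, 6.98, 4.91 and 3.95 FPKM (-2.69 ± 0.26). Whether reads were counted by strand is not given in the sources used here, so reads of an antisense gene and of its partner cannot be told apart.

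**Figure D2:**
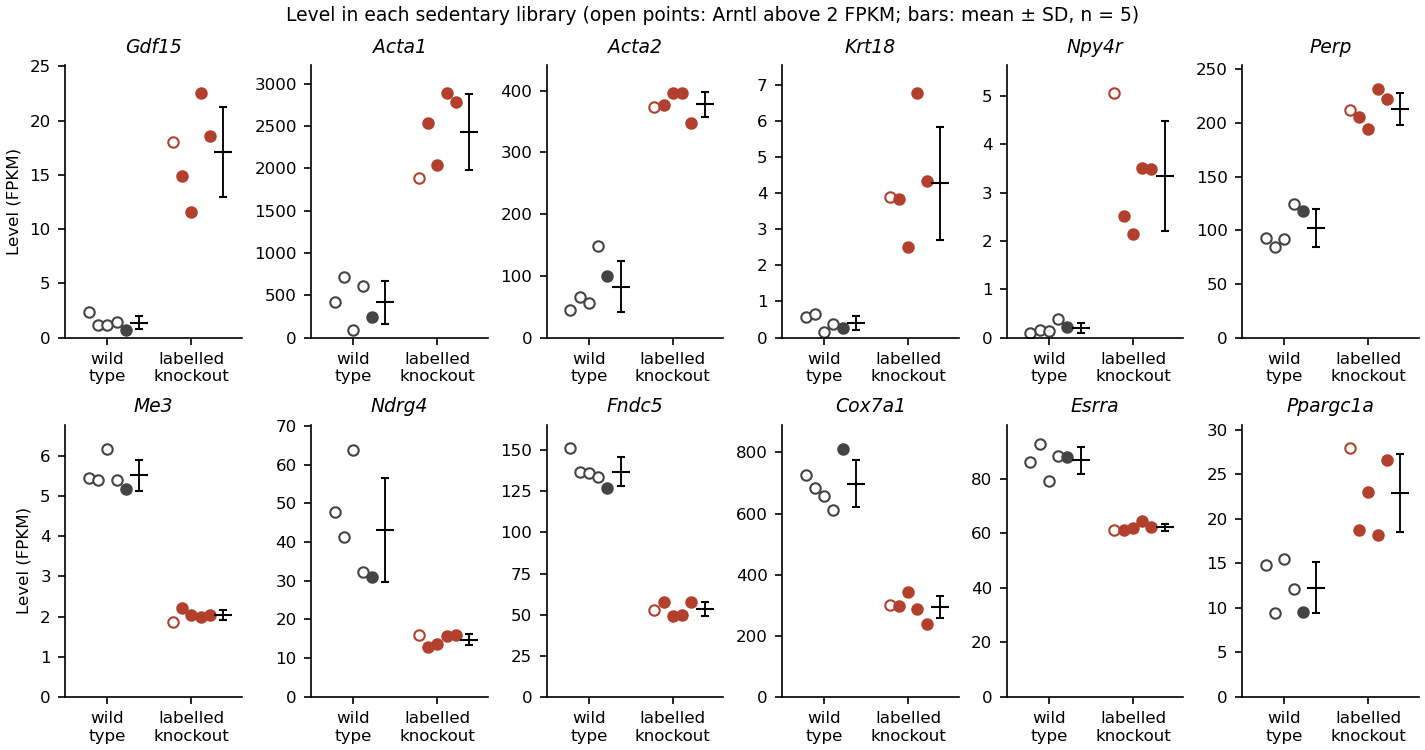
Levels in FPKM of 12 genes in each sedentary library, wild type on the left and labelled knockout on the right of each panel, with open points for the 5 libraries with Arntl above 2 FPKM and bars for the mean ± SD (n = 5). In all 12 genes the groups do not overlap, Gdf15 to Perp and Ppargc1a being higher and Me3 to Esrra lower in labelled knockout hearts.

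The smallest p of all genes belonged to Me3, the mitochondrial NADP-dependent malic enzyme, which makes pyruvate and NADPH from malate. It lies on the plus strand of chromosome 7 (89632392 to 89854359, GRCm38). Wild-type hearts held 5.46, 5.40, 6.19, 5.41 and 5.17 FPKM and labelled knockout hearts 1.87, 2.22, 2.03, 1.99 and 2.05 FPKM (-1.25 ± 0.07, limma adjusted p = 6.55e-09). The spread within each group was thus small beside the difference. Of its relatives, the cytosolic Me1 was at 44.5 ± 2.95 and 43.3 ± 2.26 FPKM (-0.04, 95% interval -0.21 to 0.14), and the mitochondrial Me2 rose by 0.47 ± 0.12. In the list of 22 malic enzymes and other NADPH and one-carbon genes 4 rose and 2 fell, with Psat1, of serine synthesis, at 0.862 ± 0.121 and 3.93 ± 0.612 FPKM (1.69 ± 0.13). Idh2, the mitochondrial NADP-dependent isocitrate dehydrogenase, fell by 0.41 ± 0.11.

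Other large decreases were in sugar metabolism, a chloride channel and cyclic AMP breakdown. Pfkfb1, which sets the level of fructose 2,6-bisphosphate, went from 4.48 ± 1.29 to 1.41 ± 0.429 FPKM, and the sugar transporter Slc2a12 from 1.71 ± 0.651 to 0.394 ± 0.188 FPKM. Clcn1, the chloride channel that steadies the resting potential of skeletal muscle, was at 2.32, 2.68, 3.78, 1.51 and 4.42 FPKM against 0.329, 0.357, 0.762, 0.352 and 0.226 FPKM (-1.88 ± 0.26). Pde4a, a phosphodiesterase that breaks down cyclic AMP, was at 14.9, 13.2, 14.6, 11.6 and 9.99 FPKM against 6.22, 6.24, 4.83, 5.38 and 5.08 FPKM (-1.13 ± 0.10, limma adjusted p = 2.24e-06). These genes fell with and without the Arntl covariate.

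Outside the mitochondrial genome the largest decreases in absolute level were in muscle isoforms and fuel handling. Transcripts of the mitochondrial genome were left out of this ranking, and of 33 tested 2 fell and 0 rose, at a median of -0.38. Fabp3, the fatty acid carrier of the cardiomyocyte cytosol, was at 4519, 4591, 4449, 4760 and 4675 FPKM in wild-type and 3550, 3735, 4021, 3533 and 3269 FPKM in labelled knockout hearts (-0.35 ± 0.10). It did not pass with the Arntl covariate (-0.28, limma adjusted p = 0.273). Cardiac troponin I, encoded by Tnni3, was at 1869, 1993, 2172, 2157 and 2430 FPKM against 1335, 1324, 1697, 1331 and 1314 FPKM (-0.60 ± 0.12). Its gene model overlaps that of Dnaaf3 on the same strand, and Dnaaf3 fell too (-1.31 ± 0.18), so their shared reads cannot be told apart. Ldhb, the heart form of lactate dehydrogenase, was at 1103, 1092, 1033, 1121 and 1107 FPKM against 777, 789, 914, 779 and 766 FPKM (-0.44 ± 0.08).

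Pairs of related isoforms were set side by side after their values were seen, and they did not all move alike. The muscle form fell while the form of wider expression rose or did not pass for Rpl3l with Rpl3 and Cox6a2 with Cox6a1. In the other pairs below the muscle form did not pass, both forms fell, or neither form is restricted to muscle. Rpl3l, the striated muscle form of ribosomal protein L3, was at 160.2, 159, 163, 179.8 and 194 FPKM in wild-type and 67.2, 104, 122, 76.2 and 97.2 FPKM in labelled knockout libraries (-0.90 ± 0.18). Its counterpart Rpl3 was at 41.0, 42.3, 39.2, 51.3 and 53.4 FPKM against 88.6, 81.7, 85.1, 98.8 and 87.6 FPKM (0.96 ± 0.14), so both changed by nearly the same size in opposite directions. The elongation factor Eef1a1 rose from 294 ± 33.0 to 736 ± 76.2 FPKM (1.33 ± 0.19), and its muscle form Eef1a2 was at 826 ± 123 and 703 ± 35.9 FPKM (-0.22, 95% interval -0.44 to 0.00, limma adjusted p = 0.161). Both Rpl3 and Eef1a1 have processed copies in the genome, among which reads may be split. Ldha, the lactate dehydrogenase of glycolytic tissue, rose by 0.47 ± 0.10 where Ldhb fell, and did not pass with the Arntl covariate (0.35, limma adjusted p = 0.0802). In complex IV the muscle subunit Cox6a2 fell by 0.41 ± 0.12 on the log2 scale, while its widely expressed form Cox6a1 was at 129 ± 10.3 and 126 ± 11.3 FPKM (-0.04, 95% interval -0.35 to 0.28). Cox7a1 fell by 1.25 ± 0.14 and its wide form Cox7a2 by 0.38 ± 0.09.

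Skeletal muscle isoforms of the thin filament rose, actin at a high level and troponins at low ones. Acta1, skeletal α-actin, was at 419.7, 709.9, 90.0, 608 and 246 FPKM in wild-type and 1882, 2530, 2039, 2894 and 2783 FPKM in labelled knockout libraries (2.85 ± 0.47). Acta2, smooth muscle actin, went from 82.6 ± 42.0 to 378 ± 20.3 FPKM (2.32 ± 0.24), and near-identical coding sequences leave the split of reads among actins uncertain. Of 11 troponins and tropomyosins 4 rose and 1 fell (median 0.22), and 3 and 1 did so with the Arntl covariate. Tnni1, the troponin I of the fetal heart and slow muscle, was at 0, 0.0694, 0.130, 0.0912 and 0.0625 FPKM in wild-type and 0.791, 0.497, 0.574, 1.12 and 1.04 FPKM in labelled knockout libraries (1.17 ± 0.21). The fast form Tnni2 was at 0.612, 0.459, 1.05, 0.804 and 1.44 FPKM against 4.72, 2.46, 4.75, 8.20 and 5.68 FPKM (2.00 ± 0.27). Both are traces beside the level of Tnni3. Of 5 tested markers of skeletal muscle 4 rose (median 1.16), namely Tnni2, Tnnt3, Mylpf and Myl1. Tnnt3 was at 0.329 ± 0.221 and 0.937 ± 0.430 FPKM, with a wild-type mean below the 0.5 FPKM of the filter. Listed markers that were not tested were at means of 0 and 0.00407 FPKM (Myh1), 0.00502 and 0.00543 (Myh2), 0.238 and 0.164 (Pvalb) and 0.0909 and 0.198 (Actn3). The summed level of the 9 listed markers in the table, most of it Ckm, was 449 to 587 FPKM in wild-type and 456 to 549 FPKM in labelled knockout libraries. The part that attached skeletal muscle has in these values was not tested. Atp2a1, the fast-muscle calcium pump, was at 0.216 to 0.337 FPKM in wild-type and at 4.05, 0.901, 1.41, 7.36 and 4.76 FPKM in labelled knockout hearts. Labelled knockout replicate 4 was the highest library and replicate 2 the lowest of its group for both Tnni2 and Atp2a1.

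In the thick filament 3 of 12 sarcomeric myosins rose and 0 fell, and none did with the covariate. The skeletal light chain Myl1 was at 13.1 ± 1.87 and 35.7 ± 8.67 FPKM (1.39 ± 0.35). Myh6, the adult heavy chain, was at 5270 ± 964 and 5421 ± 597 FPKM (0.05, 95% interval -0.20 to 0.30), and Myh7, the fetal and slow heavy chain, rose from 69.7 ± 17.4 to 117 ± 29.5 FPKM (0.74 ± 0.24, limma adjusted p = 0.0432). At the Z-disc 6 of 28 genes rose and 0 fell, while the list median was -0.03 on the deposited scale and 0.07 on the TPM scale. They included Myoz2, a calcineurin-binding Z-disc protein (0.42 ± 0.09), Actn1, a non-muscle actinin (0.63 ± 0.13), and Ankrd1, a stretch-responsive repeat protein of the titin spring (1.74 ± 0.33). Ankrd1 was at 679, 627, 235, 369 and 366 FPKM in wild-type and 1227, 1738, 914, 1831 and 1575 FPKM in labelled knockout libraries. Lrrc10, a cardiac protein of the Z-line region, was at 88.6, 75.1, 82.4, 168 and 120.4 FPKM against 171, 189, 229, 241 and 252.3 FPKM (1.07 ± 0.17).

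Tubulins formed 1 of the groups with the largest share called. Of 16 tested 8 rose and 1 fell, against 6.96% and 6.32% of all genes, and 5 rose with the Arntl covariate. The α-tubulin Tuba1b was at 67.7, 62.3, 73.2, 87.7 and 81.9 FPKM in wild-type and 131, 138, 137, 145 and 133 FPKM in labelled knockout libraries (0.88 ± 0.10, limma adjusted p = 1.89e-05). Tubb5 and Tubb4b rose by 0.71 ± 0.10 and 0.54 ± 0.07. Tuba4a, another α-tubulin, was the 1 that fell, from 176 ± 22.4 to 125 ± 8.51 FPKM (-0.49 ± 0.10). Near-identical coding sequences of Tuba1b and Tuba1c leave the split of their reads uncertain.

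Ion channels moved in both directions. Of 28 potassium channel genes 4 rose and 7 fell (median -0.11), with 2 and 1 after the Arntl covariate. Kcne1, the accessory subunit of the slow delayed rectifier, was at 1.63, 1.63, 1.31, 2.66 and 2.54 FPKM in wild-type and 7.11, 5.76, 6.07, 6.26 and 5.33 FPKM in labelled knockout libraries (1.46 ± 0.18, limma adjusted p = 3.61e-05). Kcnj2, of the inward rectifier that sets the resting potential, fell by 0.51 ± 0.14. Kcnj11, the pore of the ATP-sensitive channel, fell by 0.35 ± 0.11 and Kcnk3 by 0.40 ± 0.13, and none of these 3 passed with the covariate.

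Of 12 voltage-gated calcium channel genes 1 rose and 3 fell. The pore subunit of the cardiac L-type channel, Cacna1c, fell by 0.38 ± 0.12, Cacna2d1 by 0.49 ± 0.16 and Cacng6 by 1.20 ± 0.24, and the β subunit Cacnb1 rose by 0.81 ± 0.12. With the covariate Cacng6 and Cacnb1 passed and the other two did not. Calcium handling genes of the sarcoplasmic reticulum were mostly below 0, in 20 of 23, at a median of -0.11, but only Hrc and Ryr2 fell. Hrc, the luminal calcium-binding protein, was at 358, 361, 409.5, 462 and 421 FPKM in wild-type and 238, 277, 267, 248 and 258 FPKM in labelled knockout libraries (-0.64 ± 0.11). Ryr2, the release channel, fell by 0.60 ± 0.18 and did not pass with the covariate (-0.19, limma adjusted p = 0.608). The pump Atp2a2 was at 2914 ± 308 and 2217 ± 336 FPKM and did not pass (-0.40 ± 0.16, limma adjusted p = 0.0939).

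All 3 α1-adrenergic receptors, which couple catecholamines to growth and contraction, fell. Adra1b, the main one here, was at 14.0, 17.2, 24.5, 23.0 and 12.6 FPKM in wild-type and 13.0, 7.46, 8.24, 6.40 and 6.46 FPKM in labelled knockout libraries (-1.09 ± 0.21), with labelled knockout replicate 1, the library with high Arntl, inside the wild-type range. Adra1a fell by 0.67 ± 0.20 and Adra1d by 1.79 ± 0.27. With the covariate Adra1d passed, and Adra1b (-0.67, limma adjusted p = 0.0506) and Adra1a (-0.40, limma adjusted p = 0.386) did not. Of the whole list of 23 adrenergic and muscarinic signalling genes, in which Adra1d was not placed, 2 rose and 3 fell, and 1 and 0 did with the covariate.

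Among 165 solute carriers outside mitochondria 14 rose (8.48%) and 16 fell (9.70%), close to the shares of all genes, and 4 and 7 passed with the covariate. Slc16a3, a lactate exporter of glycolytic muscle, was at 0.565, 0.658, 0.395, 0.514 and 0.508 FPKM in wild-type and 1.62, 1.31, 1.49, 1.82 and 1.54 FPKM in labelled knockout libraries (1.00 ± 0.17). The amino acid carriers Slc38a4 and Slc38a1 rose by 0.82 ± 0.15 and 0.87 ± 0.17. Slc41a3, a magnesium transporter gene, was at 39.8, 35.4, 40.2, 40.8 and 10.5 FPKM in wild-type and 16.2, 6.54, 3.68, 4.48 and 4.17 FPKM in labelled knockout libraries, so the low-Arntl wild-type library and the high-Arntl labelled knockout library each sat apart from their group. Its change was -2.24 ± 0.44, and -1.03 with the Arntl covariate, which still passed. The glycerol channel Aqp7 fell by 0.67 ± 0.17 and did not pass with the covariate (-0.55, limma adjusted p = 0.147).

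Genes that build and keep mitochondria, outside the fuel oxidation and respiratory chain subunits themselves, were lower in part. Of 45 assembly factors of the respiratory complexes 11 fell and 1 rose (median -0.14), of 13 coenzyme Q genes 6 fell and 1 rose (-0.28), of 38 mitochondrial solute carriers 9 fell and 1 rose (-0.17), and of 29 genes of mitochondrial shape and turnover 7 fell and 1 rose (-0.12). The median over all genes was -0.01. With the Arntl covariate the numbers that fell were 1, 2, 4 and 6 at medians of -0.14, -0.20, -0.16 and -0.10, and on the TPM scale they were 2, 2, 5 and 3 at medians of -0.04, -0.18, -0.08 and -0.03. Coq9, a lipid-binding protein of coenzyme Q synthesis, was at 175, 170.2, 162, 178 and 171 FPKM in wild-type and 119, 131, 121, 117 and 127 FPKM in labelled knockout libraries (-0.47 ± 0.07, limma adjusted p = 0.000197). Its model overlaps Ciapin1 on the other strand, which also fell. Mtfp1, a fission protein of the inner membrane, was at 82.4, 80.8, 84.2, 82.7 and 77.6 FPKM against 46.5, 47.3, 51.4, 45.7 and 42.5 FPKM (-0.80 ± 0.09, limma adjusted p = 2.61e-05). The fusion protein Mfn1 fell by 0.68 ± 0.10, and the cristae proteins Chchd3 and Immt by 0.33 ± 0.06 and 0.36 ± 0.09. Slc25a12 and Slc25a11, carriers of the malate-aspartate shuttle, fell by 0.45 ± 0.08 and 0.42 ± 0.08.

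Of 24 genes for upkeep and transcription of the mitochondrial genome 5 fell, among them Mterf2 (-0.82 ± 0.11), Tfam (-0.35 ± 0.08) and the helicase Twnk (-0.35 ± 0.11). Of 81 mitochondrial ribosomal proteins 13 fell (16.0%) and 0 rose. The medians of both lists were -0.07 on the deposited scale and turned to 0.02 and 0.03 on the TPM scale, so the direction of these lists as a whole is not set. With the covariate 2 and 3 fell. Mitochondrial import genes moved as often up as down, in 2 each of 22, and the median of that list also changed sign on the TPM scale.

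Antioxidant genes moved both ways. Of 30 tested, 4 rose and 5 fell, and the median turned from -0.04 to 0.05 on the TPM scale. The mitochondrial enzymes Sod2 and Prdx3 fell, Sod2, the manganese superoxide dismutase, from 63.2, 58.9, 65.0, 62.4 and 54.5 to 37.4, 37.8, 39.2, 37.6 and 38.4 FPKM (-0.67 ± 0.08) and Prdx3 by 0.40 ± 0.08, as did the cytosolic Glrx (-0.88 ± 0.10) and Prdx6 (-0.30 ± 0.07). Gpx1, a glutathione peroxidase, rose from 46.8 ± 7.45 to 78.9 ± 8.68 FPKM (0.75 ± 0.15), and Hmox1, heme oxygenase, by 0.81 ± 0.19. The mitochondrial uncoupling protein Ucp2 was at 10.6, 15.7, 9.80, 16.9 and 20.9 FPKM against 21.3, 41.4, 36.3, 37.7 and 38.7 FPKM (1.24 ± 0.30), with labelled knockout replicate 1 just above the highest wild-type library. None of the 4 that rose passed with the Arntl covariate, and 4 of those that fell did.

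**Figure D3:**
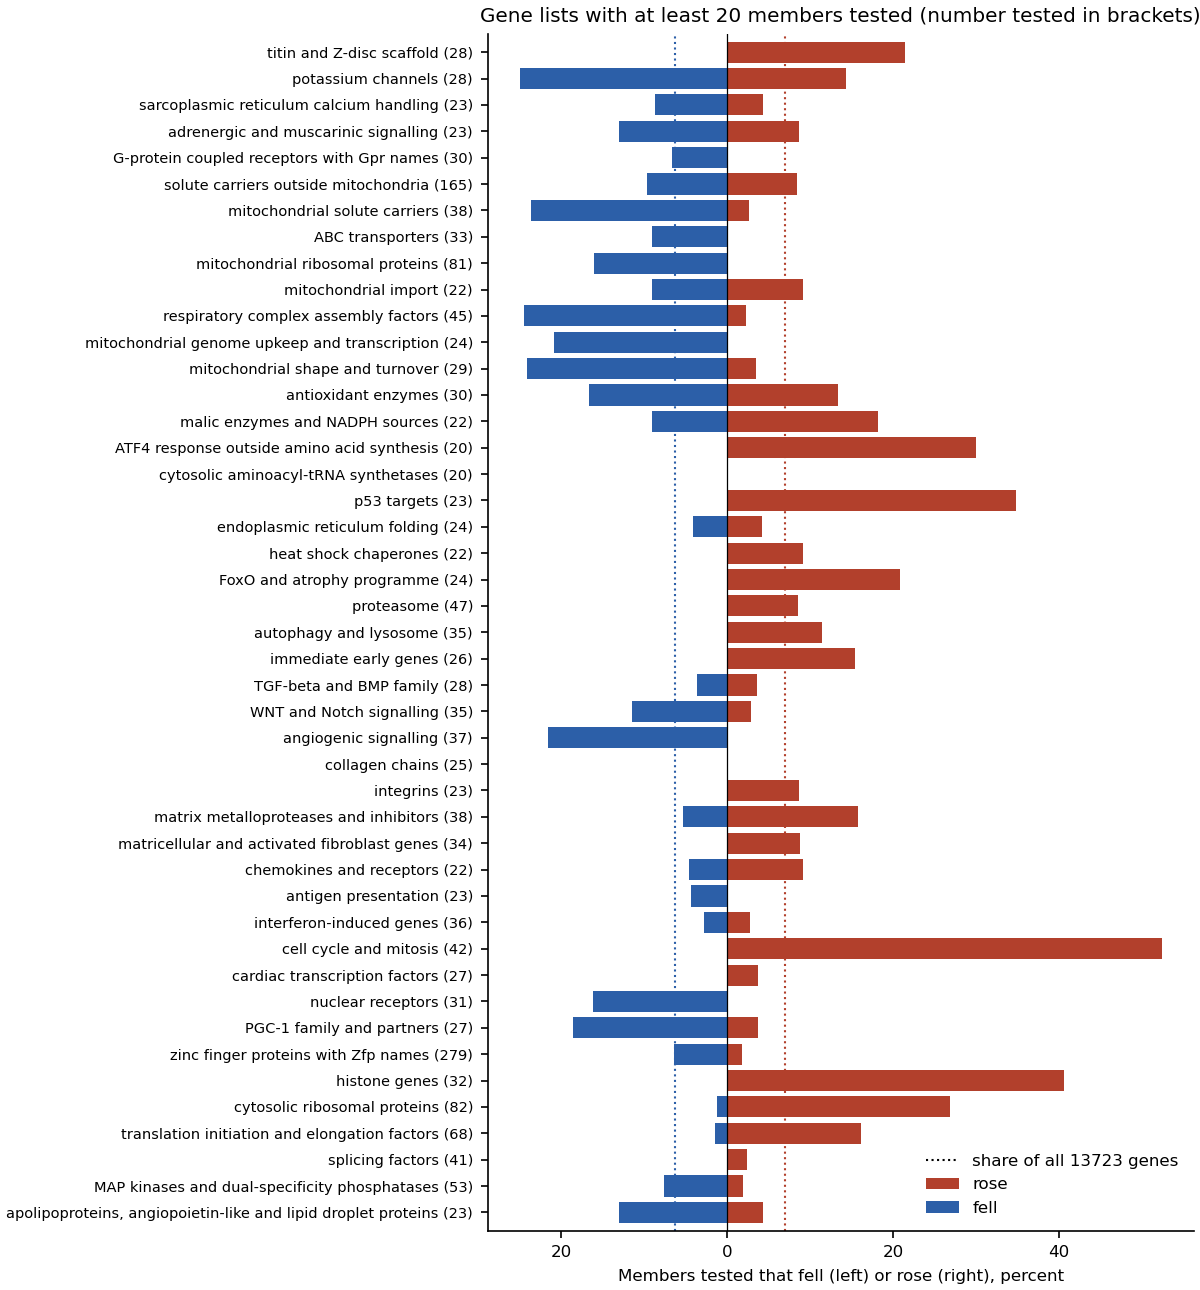
Share of the tested members of each gene list with at least 20 members that rose (red, right of 0) or fell (blue, left of 0), in percent, with dotted lines at the shares of all 13723 genes (6.96% and 6.32%). Cell cycle genes, histones, p53 targets and the ATF4 list lie furthest to the right, and potassium channels, assembly factors, mitochondrial shape genes and mitochondrial solute carriers furthest to the left.

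Promoters were searched because estrogen-related receptors are DNA-binding partners of PGC-1α. RefSeq promoters of GRCm38.p6 were matched to 9701 of the tested genes, and the 250 bases before each start were read on both strands. The site TCAAGGTCA, or its reverse complement TGACCTTGA, stood in 4 of 646 promoters of genes that fell (0.619%) and 0 of 714 of genes that rose, against 33 of 9701 of all tested genes (0.340%) and 114 of 27025 promoters of the table (0.422%). The shorter core AAGGTCA or TGACCTT, which is part of it, stood in 33 promoters of genes that fell (5.11%), 23 of genes that rose (3.22%) and 341 of all tested (3.52%). For NRF1 the motif GCGCATGCG stood in 3.10%, 3.22% and 3.39%, and the clock E-box CACGTG in 8.36%, 11.1% and 9.84%. These are descriptions of letters with no test. The genes that fell with the longer site were Acsl6, Mtrf1l, Atp5g3 and Msrb2. Perm1 was 1 of the 33 that fell with the shorter core, and Scgb1c1 was 1 of the 23 that rose with it. Windows around the match, where they touch no annotated exon, are printed 5′ to 3′ on the strand of the gene, for genes that fell only. The match is in capitals, and a second TGACCTT in the Acsl6 window is left in lower case.
Acsl6: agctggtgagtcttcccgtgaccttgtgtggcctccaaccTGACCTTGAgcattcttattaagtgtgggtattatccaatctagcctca
Mtrf1l: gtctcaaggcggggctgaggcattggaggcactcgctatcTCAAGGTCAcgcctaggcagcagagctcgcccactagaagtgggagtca
Atp5g3: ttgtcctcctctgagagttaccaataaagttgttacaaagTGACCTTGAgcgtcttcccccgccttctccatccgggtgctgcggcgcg
Perm1: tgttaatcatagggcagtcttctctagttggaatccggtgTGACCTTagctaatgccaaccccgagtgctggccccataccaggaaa
They lie at chr11:54303617-54303705 on the plus strand for Acsl6, chr10:5824103-5824191 on the minus strand for Mtrf1l, chr2:73911330-73911418 on the minus strand for Atp5g3 and chr4:156215685-156215771 on the plus strand for Perm1.

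The genes of the printed windows serve lipid activation, mitochondrial translation, ATP synthase and the PGC-1 axis. They were picked from the genes that fell and do not stand for all genes that hold either motif. Acsl6, an acyl-CoA synthetase, was at 2.58, 2.09, 1.78, 1.37 and 1.19 FPKM in wild-type and 0.628, 0.743, 0.821, 0.613 and 0.461 FPKM in labelled knockout libraries (-0.97 ± 0.15, limma adjusted p = 0.000259). Atp5g3, of the membrane ring of ATP synthase, was at 594 ± 41.1 and 473 ± 43.3 FPKM (-0.33 ± 0.10), Mtrf1l, a mitochondrial release factor, fell by 0.47 ± 0.10 and Msrb2, a mitochondrial methionine sulfoxide reductase, by 0.35 ± 0.09. Perm1, a muscle regulator induced by PGC-1, was at 126, 112, 122, 141 and 105 FPKM against 79.9, 84.5, 71.2, 76.7 and 93.1 FPKM (-0.57 ± 0.13). With the Arntl covariate Acsl6 and Msrb2 passed, and Mtrf1l, Atp5g3 and Perm1 did not.

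Of 27 genes of the PGC-1 family and its partners 5 fell and 1, Ppargc1a, rose, and 2 and 1 did with the covariate. Esrra, estrogen-related receptor α, had little spread within groups, at 85.9, 92.6, 79.0, 88.4 and 87.9 FPKM in wild-type and 61.1, 61.2, 62.0, 64.3 and 62.4 FPKM in labelled knockout libraries (-0.47 ± 0.05, limma adjusted p = 9.22e-06). Its model overlaps Trmt112 on the other strand, which rose by 0.40. Esrrb and Esrrg did not pass (-0.32 ± 0.17 and -0.37 ± 0.23), nor did the paralogs Ppargc1b, at 4.81 ± 1.24 and 4.91 ± 0.963 FPKM (0.04, 95% interval -0.43 to 0.51), and Pprc1 (0.14 ± 0.09). Ppara was at 7.05 ± 3.19 and 3.65 ± 1.84 FPKM and did not pass (-0.87 ± 0.40, limma adjusted p = 0.156). The deacetylase Sirt3 fell from 5.71 ± 0.499 to 3.55 ± 0.301 FPKM. Of 31 nuclear receptors 5 fell, among them the thyroid hormone receptors Thra (-0.60 ± 0.10) and Thrb (-0.46 ± 0.11), and 0 rose, and with the covariate 2 fell. Thra shares its locus with Nr1d1 on the other strand, which fell too (-0.73 ± 0.22), and reads of both cannot be told apart.

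Zinc finger genes named Zfp were tested in number, with 5 that rose and 18 that fell of 279, close to the share of all genes that fell, while 209 of 279 lay below 0 (median -0.13). With the covariate 0 rose and 5 fell, and on the TPM scale 7 rose and 1 fell. Of 27 cardiac transcription factors only Ankrd1, which is listed there as well, rose, and 0 fell.

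Stress genes rose in part. Of 23 p53 targets 8 rose and 0 fell, against 6.96% of all genes, and 6 of these 8, all but Sesn2 and Bax, passed with the Arntl covariate. Perp, a tetraspan p53 target of desmosomes, was at 93.0, 84.0, 92.1, 125 and 118 FPKM in wild-type and 212, 205, 194, 232 and 222 FPKM in labelled knockout libraries (1.07 ± 0.11, limma adjusted p = 8.57e-06). Phlda3, which restrains Akt, was at 7.84, 8.81, 5.91, 8.42 and 8.75 FPKM against 23.9, 19.0, 18.6, 22.9 and 21.7 FPKM (1.37 ± 0.20). Cdkn1a, the p21 inhibitor of cyclin-dependent kinases, was at 5.43, 7.03, 7.36, 25.0 and 3.04 FPKM against 23.0, 12.2, 12.7, 17.7 and 24.6 FPKM, so wild-type replicate 4 was the highest of all 10 libraries (1.16 ± 0.37, limma adjusted p = 0.0417). Gdf15, the stress cytokine, belongs to this list and to that of ATF4, in which 6 of 20 rose and 2 did so with the covariate.

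Of 24 FoxO and glucocorticoid-responsive genes 5 rose and 0 did so with the covariate, at medians of 0.21 and 0.15. Fkbp5, induced by glucocorticoids, was at 1.19, 1.22, 1.21, 6.49 and 2.35 FPKM in wild-type and 2.22, 4.55, 8.98, 8.74 and 14.7 FPKM in labelled knockout libraries (1.51 ± 0.42, and 0.85 with the covariate, limma adjusted p = 0.358). Heat shock genes rose in 2 of 22 (9.09%) and proteasome genes in 4 of 47 (8.51%), near the 6.96% of all genes. Autophagy and lysosome genes rose in 4 of 35 (11.4%) and immediate early genes in 4 of 26 (15.4%). With the covariate 0, 0, 1 and 0 genes of these lists rose, and 1 immediate early gene fell. In folding genes of the endoplasmic reticulum 1 of 24 rose and 1 fell. By limma 0 of 20 cytosolic aminoacyl-tRNA synthetases passed. The small heat shock protein Hspb1 rose from 277 ± 64.0 to 429 ± 32.3 FPKM (0.66 ± 0.17), and did not pass with the covariate (0.55, limma adjusted p = 0.155).

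Cell cycle genes had the largest share called of any list of at least 20 members. Of 42 tested 22 rose (52.4%) and 0 fell, 38 lay above 0, and 9 rose with the Arntl covariate, at medians of 0.38 and 0.43. E2f1, a transcription factor of the G1 to S transition, was at 0.291, 0.436, 0.296, 0.590 and 0.700 FPKM in wild-type and 1.49, 2.95, 1.43, 2.27 and 2.01 FPKM in labelled knockout libraries (1.38 ± 0.18, limma adjusted p = 7.76e-05). The replication helicase subunit Mcm2 was at 1.51, 1.51, 1.01, 1.92 and 1.70 FPKM against 2.87, 3.81, 2.64, 3.93 and 3.44 FPKM (0.92 ± 0.14), and Mcm3 rose by 0.61 ± 0.13. Cyclin E1, encoded by Ccne1, went from 0.592 ± 0.272 to 1.39 ± 0.130 FPKM, and the ribonucleotide reductase subunit Rrm2 from 1.00 ± 0.209 to 2.35 ± 0.786 FPKM. Mitotic genes were mixed. Ube2c and Cdc20 of the anaphase-promoting complex rose by 1.03 ± 0.22 and 0.61 ± 0.19, whereas Mki67, the marker of dividing cells, was at 0.502 ± 0.130 and 0.603 ± 0.149 FPKM (0.14, 95% interval -0.23 to 0.51) and Top2a did not pass (0.31 ± 0.15, limma adjusted p = 0.188). The model of Cdc20 overlaps Elovl1 on the other strand, which rose by 0.47, and that of Ube2c overlaps Tnnc2 on the other strand, which was not tested. Reads of these overlapping genes cannot be told apart. Levels of this list were low, the sum over the 42 genes being 128 FPKM for wild-type hearts against 170 FPKM for the labelled knockout, and which cells carried them is not known from bulk tissue.

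Of 32 histone genes 13 rose (40.6%) and 0 fell, and 7 rose with the covariate. Hist1h1c, a linker histone whose transcript is partly polyadenylated, was at 67.9, 65.0, 62.0, 76.7 and 74.7 FPKM in wild-type and 94.0, 103, 92.5, 99.1 and 103 FPKM in labelled knockout libraries (0.51 ± 0.07). Replication-dependent histone transcripts mostly lack the tail that poly-A selection uses, and histone genes have close copies, so these levels cover a part of them.

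Of 82 cytosolic ribosomal proteins 22 rose (26.8%) and 1 fell, the muscle form Rpl3l, and 78 lay above 0 at a median of 0.26. The changes were small apart from Rpl3, as for Rplp1, a stalk protein, at 689, 733, 768, 873 and 945 FPKM in wild-type and 1013, 981, 1126, 1087 and 959 FPKM in labelled knockout libraries (0.37 ± 0.11). Wild-type replicates 4 and 5 were nearest to the labelled knockout libraries, and with the covariate 2 of the 82 rose and 1 fell. Of 68 translation factors 11 rose and 1 fell, with 4 and 0 after the covariate, among them the helicase Eif4a1 (0.49 ± 0.07).

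In growth factor and vessel signalling more genes fell than rose. Of 37 angiogenic genes 8 fell (21.6%) and 0 rose (median -0.25), and with the covariate 3 fell and 1 rose at a median of -0.24. On the TPM scale 3 fell, at a median of -0.15. Vegfa, the main ligand, was at 125, 121, 111, 109 and 92.7 FPKM in wild-type and 93.3, 68.3, 87.8, 72.5 and 75.5 FPKM in labelled knockout libraries (-0.49 ± 0.14), and did not pass with the covariate (-0.22, limma adjusted p = 0.44). Vegfb fell by 0.23 ± 0.06, the receptor Tek by 0.56 ± 0.14 and the ligand Apln by 0.86 ± 0.24. Il15, a cytokine made by muscle, fell from 13.7 ± 3.31 to 6.92 ± 1.32 FPKM (-0.92 ± 0.17) with and without the covariate. In the fibroblast growth factor family 3 of 14 rose and 1 did so with the covariate, among them Fgf7 (1.28 ± 0.30) and the decoy receptor Fgfrl1 (0.69 ± 0.11).

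Markers of vessel and blood cells moved beside these genes. Of 10 endothelial markers 3 fell (median -0.20, 9 below 0), 1 of them with the covariate (median -0.36), and the summed level was 318 to 394 FPKM in wild-type and 242 to 370 FPKM in labelled knockout libraries. Of 8 pericyte markers 1, Rgs5, fell, and the sums were 216 to 262 and 189 to 200.1 FPKM without overlap. Of 10 macrophage markers 4 rose (median 0.33) and 0 did so with the covariate, where the median was 0.46, with sums of 162 to 241 and 267 to 302 FPKM. Complement genes rose in 4 of 19, of which the receptor C5ar1 was at 2.36, 1.99, 1.50, 2.30 and 2.24 FPKM against 3.21, 3.91, 3.55, 3.74 and 4.01 FPKM (0.71 ± 0.12) and passed with the covariate, whereas C1qa, C1qb and C1qc, products of macrophages, did not. The part that macrophage number has in these genes was not tested. Interferon-induced genes (1 of 36 rose, 1 fell), interleukins and receptors (0 of 18 rose, 2 fell) and antigen presentation (0 of 23 rose, 1 fell) had few calls. By limma 0 of 5 erythroid and 0 of 10 fibroblast markers passed.

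The 8 epicardial and mesothelial markers, of which 7 were tested, summed to 2.88 to 4.00 FPKM in wild-type and 8.62 to 12.7 FPKM in labelled knockout libraries, with Krt8 the 1 that rose. Krt8, at means of 0.259 and 4.37 FPKM, made up much of the difference between these sums. Of the 7 tested, 6 lay above 0 (median 0.52), and mean levels of Upk3b were 0.882 ± 0.166 and 1.90 ± 0.999 FPKM and of Msln 1.02 ± 0.264 and 2.15 ± 1.43 FPKM, with labelled knockout replicate 4 the lowest library for both. With the Arntl covariate the median of this list was -0.02. Atrial markers summed to 46.1 to 268 and 285 to 920 FPKM because of Nppa, the atrial natriuretic peptide, which ventricles re-express under load. Nppa was at 33.8, 30.4, 95.7, 38.3 and 67.7 FPKM in wild-type and 263, 567, 291, 536 and 893 FPKM in labelled knockout hearts. The groups did not overlap, but the fit over all 4 groups has a large spread for this gene and it did not pass (3.25 ± 1.16, limma adjusted p = 0.0704). Its relative Nppb was at 195 ± 93.1 and 464 ± 121 FPKM and did not pass (1.33 ± 0.45, limma adjusted p = 0.0575). Myl7, the atrial light chain, ranged from 0 to 97.1 FPKM in the wild-type group and from 0.674 to 14.8 FPKM in the other.

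By limma 0 of 25 collagen chains passed (median 0.03), with Col1a1 at 22.1 ± 4.18 and 23.5 ± 1.47 FPKM (0.11, 95% interval -0.33 to 0.54) and Col3a1 at 28.4 ± 4.08 and 26.7 ± 4.56 FPKM (-0.09, 95% interval -0.73 to 0.55). Of 34 matricellular and activated fibroblast genes 3 rose, Thbs4, Ccn2 and Spp1, and Postn, periostin, did not pass (0.60 ± 0.42, limma adjusted p = 0.354). Of 38 matrix metalloproteases and inhibitors 6 rose and 2 fell, and 3 and 1 did with the covariate, with Adam11 at 5.55 ± 1.50 and 12.4 ± 1.31 FPKM (1.13 ± 0.16) and Timp2 at 35.0 ± 3.83 and 51.4 ± 5.64 FPKM (0.55 ± 0.14).

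The trained mice are other animals, so the sedentary fold changes did not use their levels. The calls of both comparisons came from a single fit of all groups with a shared spread per gene. The overlap of calls is therefore not an independent check. In trained hearts 1713 genes rose (12.5%) and 2112 fell (15.4%) between labelled knockout and wild type. Of the 955 genes that rose in sedentary hearts 469 rose in trained hearts (49.1%, and 27.4% of the 1713), and of the 867 that fell 573 fell (66.1%, and 27.1% of the 2112). Opposite calls were made for 5 and 4 genes. The sign was shared by 85.8% and 92.7% of them, against 49.2% and 50.8% of all genes with that sign. Among genes that also passed with the Arntl covariate, 84.7% of those that rose and 96.1% of those that fell were called in trained hearts, and among genes that did not, 36.5% and 51.6%. The fit with the covariate held the trained libraries too and had fewer calls, so this split of genes was not independent of the trained calls.

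The difference between the trained and the sedentary genotype effect was tested by the interaction, which passed for 1005 of all genes (7.32%) and for 248 of the 1822 called in sedentary hearts. The interaction contains the sedentary difference by which those 1822 were called, so the 2 shares cannot be compared as independent results. Of 81 mitochondrial ribosomal proteins 68 fell in trained hearts and 40 had an interaction below 0, and assembly factors had 31 of 45 and 8. Cox7a1 went from -1.25 in sedentary to -2.24 in trained hearts (interaction limma adjusted p = 0.00825), Tnni3 from -0.60 to -1.57 (limma adjusted p = 0.00702), Rpl3l from -0.90 to -1.91 (limma adjusted p = 0.0234) and Esrra from -0.47 to -0.85 (limma adjusted p = 0.00716). Kcne1 (1.46 and 2.58) and Myh7 (0.74 and 2.21) rose more after training (limma adjusted p = 0.0138 and 0.0152).

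Some sedentary increases were smaller or not seen after training. Genes picked for a large sedentary difference tend to show a smaller one in other animals, and how much of this pattern is due to that was not tested. Lrrc10 went from 1.07 to 0.05 (interaction limma adjusted p = 0.0191), Tubb4b from 0.54 to 0.01 (limma adjusted p = 0.00764), Tnnt1 from 0.95 to 0.01 (limma adjusted p = 0.026) and Tnni2 from 2.00 to 0.68 (limma adjusted p = 0.0442). Cytosolic ribosomal proteins rose in 2 of 82 in trained hearts. Of the 82, 7 had an interaction below 0, near the 7.32% of all genes with an interaction of either sign. Cell cycle genes rose in 28 of 42 and none had an interaction that passed. Matrix genes differed as well, as 16 of 25 collagen chains and 30 of 34 matricellular genes rose in trained hearts, 13 of each with an interaction above 0. Col1a1 had a difference of 1.60 there (interaction limma adjusted p = 0.00825) and Col3a1 of 2.02 (limma adjusted p = 0.00947). Fibroblast markers rose in 8 of 10 and macrophage markers in 10 of 10 trained comparisons, and 4 trained libraries, 2 of each genotype, carried Myl7 above 1000 FPKM, whose part in these differences was not tested.

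**Figure D4:**
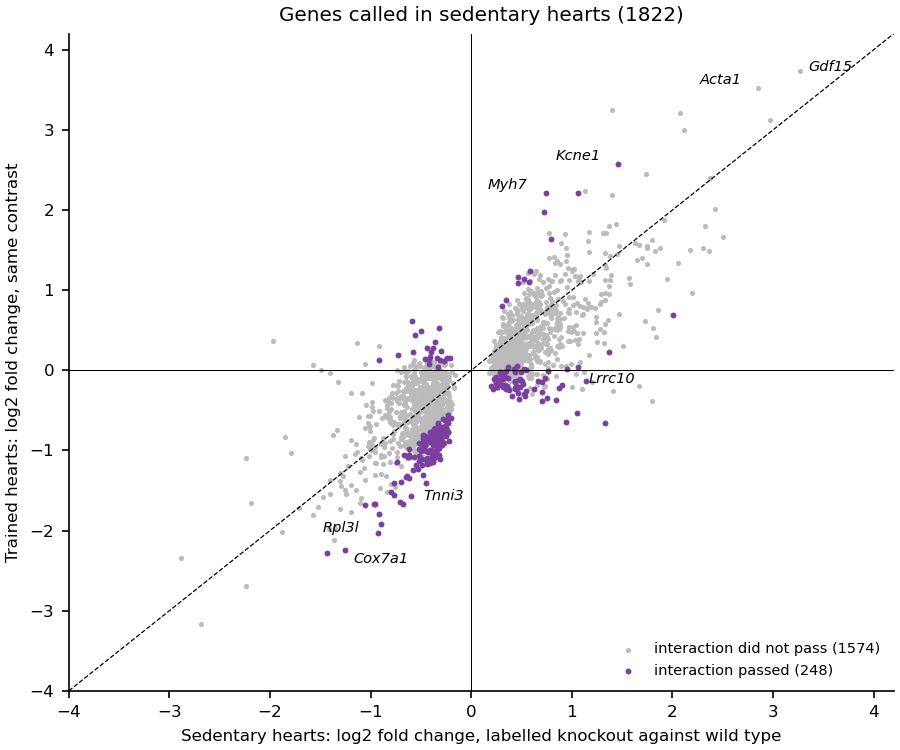
Each point is 1 of the 1822 genes called in sedentary hearts, with its log2 fold change, labelled knockout against wild type, in sedentary hearts (horizontal) and in trained hearts (vertical). Purple points are the 248 genes whose interaction passed and the dashed line marks equal change. Most genes lie in the quadrants of shared sign, and purple points below the dashed line on the left are genes that fell further in trained hearts.

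On the main axis of variation all sedentary libraries with high Arntl lay lower than those with low Arntl. Wild-type replicates 1 to 3 also lay lower there than every labelled knockout library, so the axis went with genotype as well. The first principal component held 43.3% of the variance over the 10 libraries. Wild-type replicates 1 to 3 lay at -31.7, -23.7 and -38.3, wild-type replicates 4 and 5 at -0.685 and 2.61, labelled knockout replicate 1 at -6.63 and labelled knockout replicates 2 to 5 at 20.7 to 27.6. Labelled knockout replicate 1 was nearer to the wild-type mean for 31.8% of the 955 genes that rose and 24.0% of the 867 that fell, and wild-type replicates 4 and 5 were nearer to the labelled knockout mean for 29.4% and 34.5% of the former. For the other 7 libraries these shares were at most 9.34%. Once log2 Arntl entered the fit, 272 genes passed upward (1.98%) and 322 downward (2.35%). The calls shared with the fit without Arntl were 249 and 282. Over these 531 genes, which passing the adjusted fit selected, the shares were 4.14% for labelled knockout replicate 1, 8.10% and 6.21% for wild-type replicates 4 and 5 and, the highest, 12.2% for labelled knockout replicate 3.

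Without the 5 libraries with Arntl above 2 FPKM, which leaves 1 wild-type and 4 labelled knockout sedentary hearts and assumes that the lone library varies like the others, 10 genes rose and 9 fell, with 585 and 681 at an unadjusted p below 0.05. Of these 10 and 7 were among the genes above. Among the 10 were Gdf15, Psat1, Npy4r, Renbp, Gm47985, Eprn, Acta2, Ptgr1 and Pcbd1, and among the 7 were Me3, Pde4a, Clcn1 and Esrra. Their differences in that comparison were -1.14 for Me3, -0.49 for Esrra and 1.45 for Renbp. Genotype and Arntl state overlap in the design as sampled, so their shares in the genes lost cannot be told apart.

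**Figure D5:**
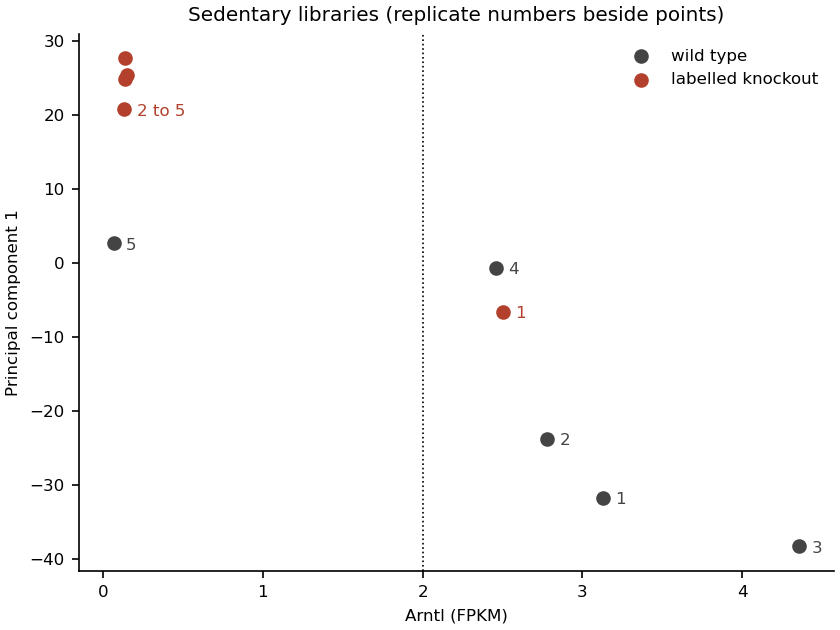
Arntl level in FPKM (horizontal) and position on the first principal component of the sedentary libraries (vertical), with replicate numbers beside the points and a dotted line at 2 FPKM. The 4 labelled knockout libraries with low Arntl lie at 20.7 to 27.6, the high-Arntl libraries of both genotypes at or below -0.685, and wild-type replicate 5 with low Arntl at 2.61.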

How the data were processed

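The authors deposited FPKM values per gene for 20 heart libraries. Per the submitters' processing notes the build was mm10 and the tools listed are DESeq2 1.20.0, HISAT2 2.0.5 and featureCounts 1.5.0-p3, and the strand setting of counting is not given in the sources used here. Per the labels, poly-A selected RNA of 5 mice per group was sequenced from directional libraries in 1 batch. FPKM times GENCODE M21 exon length gave whole reads, within 0.01 reads, in every library for 24970 of 25839 genes with a model (96.6%). Sedentary libraries held 15.3 to 27.2 M such reads.

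Genes with a mean of at least 0.5 FPKM were fitted as log2(FPKM + 0.5) with limma 3.58.1 in R 4.3.3 (empirical Bayes with trend), in a single model of all 4 groups that leaves 16 degrees of freedom, and Benjamini-Hochberg adjustment over 13723 genes. Single values were tested by exact two-sided permutation over samples, with a smallest p of 0.00794. The fit was tested on simulated counts with known changes in some genes. Those counts held no small changes and no variation shared across genes such as that along Arntl, so they do not test the calls above. Alternatives were other pseudocounts, filters, scalings and weights, limma voom on recovered reads, the Arntl covariate, subsets of libraries, the replicate number as a block and leaving out each library.

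Members and lists were chosen with earlier results of these data known. Named genes were Ppargc1a, Arntl, Myl7 and Gdf15, the 20 largest changes per direction with groups that did not overlap and at least 1 FPKM in the higher group, the 10 largest changes in FPKM outside the mitochondrial genome, up to 5 members per list and up to 6 long noncoding RNAs per direction in order of p, and the 10 largest that also passed with the Arntl covariate. Genes outside that rule, among them the isoform partners, further members of a list and the genes behind the promoters, were chosen after their values were seen. Some genes that this rule would name are not reported here.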

Additional observations from a re-analysis of the deposited data

Results flagged for a closer look

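A library that stood apart from the other 4 of its group was looked for in 320 groups of 5 over the 160 genes named, and 24 had one, where chance gives about 1 in 20 groups. Labelled knockout replicate 1, the high-Arntl library of its group, was the highest for Adra1b at 13.0 FPKM, Arntl at 2.50 FPKM, Rxfp1 at 3.77 FPKM, Slc41a3 at 16.2 FPKM and Thra at 19.9 FPKM. It was the lowest for Eif4a1 at 46.5 FPKM, Prdx6 at 26.1 FPKM and Ucp2 at 21.3 FPKM. Labelled knockout replicate 3 was the highest for Clcn1 at 0.762 FPKM, Ldhb at 914 FPKM, Rgs5 at 87.9 FPKM and Tnni3 at 1697 FPKM, and the lowest for Chchd3 at 77.4 FPKM. Labelled knockout replicate 2 was the highest for Lad1 at 12.3 FPKM, and replicate 4 for Myl7 at 14.8 FPKM and Spp1 at 1.04 FPKM.

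In wild-type hearts replicate 4 was the highest for Cdkn1a at 25.0 FPKM, Fkbp5 at 6.49 FPKM and Kcnj11 at 68.5 FPKM. Replicate 1 was the highest for Me2 at 4.77 FPKM and Pcbd1 at 2.99 FPKM, replicate 2 for Upk3b at 1.17 FPKM, replicate 3 for Myl7 at 97.1 FPKM, and replicate 5, the low-Arntl library, the lowest for Slc41a3 at 10.5 FPKM.

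Named genes were mostly picked by their sedentary differences, which also enter the interaction term of limma. By that term the genotype difference itself differed between trained and sedentary hearts for 30 of them. On the log2 scale, trained minus sedentary, it was above 0 for Col3a1 (2.11), Postn (2.08), Col1a1 (1.49), Myh7 (1.47) and Kcne1 (1.12). Below 0 were the muscle and contractile genes Tnni2 (-1.32), Lrrc10 (-1.02), Rpl3l (-1.01), Tnni3 (-0.96), Tnnt1 (-0.94), Tuba4a (-0.70), Hrc (-0.68) and Tubb4b (-0.53). The mitochondrial genes below 0 were Cox7a1 (-0.99), Cox6a2 (-0.74), Mtfp1 (-0.72), Msrb2 (-0.66), Atp5g3 (-0.65), Idh2 (-0.58), Cox7a2 (-0.56), Coq9 (-0.50), Slc25a11 (-0.46), Sod2 (-0.39), Sirt3 (-0.36) and Chchd3 (-0.33). Il15 (-0.88), Ldhb (-0.72), Ckm (-0.56), Vegfb (-0.54) and Esrra (-0.37) were below 0 as well.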

How the results depend on the processing

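Against 955 genes that rose and 867 that fell, array weights gave 2630 and 2706, the Arntl covariate 272 and 322, and leaving out the 5 libraries with Arntl above 2 FPKM 10 and 9, or 18 and 8 with the sedentary groups fitted alone, a variant added after seeing the data. On the TPM scale 393 fell. Leaving out 1 library gave 580 to 1370 genes that rose and 551 to 1435 that fell, fewest without wild-type replicate 3 (rose) and labelled knockout replicate 4 (fell) and most without labelled knockout replicate 1. The replicate number as a block gave 1212 and 1255, and the correlations of same-numbered libraries, from -0.18 to 0.36, do not show that numbers pair the mice. Genes that rose in both sedentary and trained hearts, 3.42% of those tested, became 5.93% on the TPM scale, 5.60% with array weights, 1.66% with the Arntl covariate and 0.0729% without the 5 libraries, and those that fell in both, 4.18%, became 1.84% on the TPM scale, 2.24% with the covariate and 0.0583% without the 5 libraries. The log2 difference of Ppargc1a was 0.88, and 1.13 without the 5 libraries, which did not pass with all groups or with 2 groups alone. No direction reversed. Of 138 named genes that passed, 87 also did with the covariate, 120 on the TPM scale and 13 without the 5 libraries. The cause was not tested.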
